A study of Mus musculus with 6 samples.

Results

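*Tmem108*, *Gja1*, *Ebi3*, *Trat1*, *Bex1*, *Bex6*, *Itm2a* and *BC035044* were 8 of the 10 genes with the largest drop in RNA in cytotoxic T cells that kept expressing the transcription factor KLF2. They are 8 of 18193 genes measured, each of these counted at its brightest probe set, and the array reads the 8 genes with 17 of its 45037 probe sets. They were picked by the size of this same difference, so the values of the 8 genes between the groups are given as a description, with no test. RNA came from GFP-KLF2 cells (3 arrays) and evGFP cells (3 arrays), which the labels call biological replicates without saying how the animals or cultures were divided among them. All cells were C57BL/6 mouse splenocytes, from mice 8-12 weeks old, with the P14 T cell receptor transgene, which recognises a peptide of the virus LCMV. They were activated with gp33-41 peptide for 48 hours, transduced with retrovirus 18 hours after the peptide was added, grown in IL-2 for 48 hours more, per the labels, and sorted for GFP, although a legend of the study gives a longer IL-2 culture. GFP-KLF2 cells carried a fusion of GFP to KLF2 and evGFP cells the empty vector with GFP alone, so that the control cells were transduced and sorted too. The GFP negative cells of the same cultures were not analysed here.

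Naive T cells express KLF2, a zinc finger factor of the Krüppel-like family that binds CACCC and GC-rich elements. They lower its level when antigen and cytokines activate them. The construct in GFP-KLF2 cells keeps the factor present during a stage at which, by the study's account, activated CD8 T cells hold little of it. The 8 genes belong to no single pathway: they encode a gap junction channel, a cytokine subunit, a T cell receptor adaptor, 2 members of a family of small brain-expressed proteins and 2 other membrane proteins, and 1 gene has no role stated here. The arrays are Affymetrix mouse 3' expression arrays, and levels are log2 RMA intensities. Because each probe set hybridises with its own strength, a level can be compared between arrays but not between genes.

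The arrays of a group resembled each other, with Pearson correlations over all probe sets of 0.993 to 0.996 within a group and 0.982 to 0.990 between groups. The probe set of *Klf2* gave 9.83, 9.67 and 8.74 in GFP-KLF2 arrays and 10.99, 10.37 and 8.80 in evGFP arrays. These values do not check the labels, since by the study's own account the construct lacks the part of the transcript that the probes read. CD8 T cell markers summed to 79144 to 82236 linear intensity units in GFP-KLF2 arrays and 74861 to 78917 in evGFP arrays over 8 genes, of which *Cd8b1* was higher (log2 fold change 0.45, limma adjusted p = 0.0107) and 7 did not pass. B cell (6 genes, 354 to 486 in GFP-KLF2 and 336 to 381 in evGFP), myeloid (7 genes, 350 to 387 in GFP-KLF2 and 309 to 329 in evGFP), dendritic (4 genes, 201 to 218 in GFP-KLF2 and 181 to 209 in evGFP) and stromal or endothelial markers (10 genes, 452 to 519 in GFP-KLF2 and 447 to 506 in evGFP) were low sums with no member past the threshold. Of 4 CD4 T cell markers, *Zbtb7b* was higher (0.45, adjusted p = 0.0429), and the other 3 did not pass. The replicate 2 arrays of both groups stood apart in sex-linked transcripts. *Xist* gave 12.89, 5.84 and 12.94 in GFP-KLF2 replicates 1 to 3 and 13.14, 5.97 and 13.09 in evGFP replicates 1 to 3, while *Eif2s3y* gave 3.26, 10.11 and 3.35 in GFP-KLF2 and 3.30, 10.39 and 3.37 in evGFP arrays. The labels give no sex, each group holds 1 such array, and *Bex1* and *Itm2a* lie on chromosome X.

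**Figure D1:**
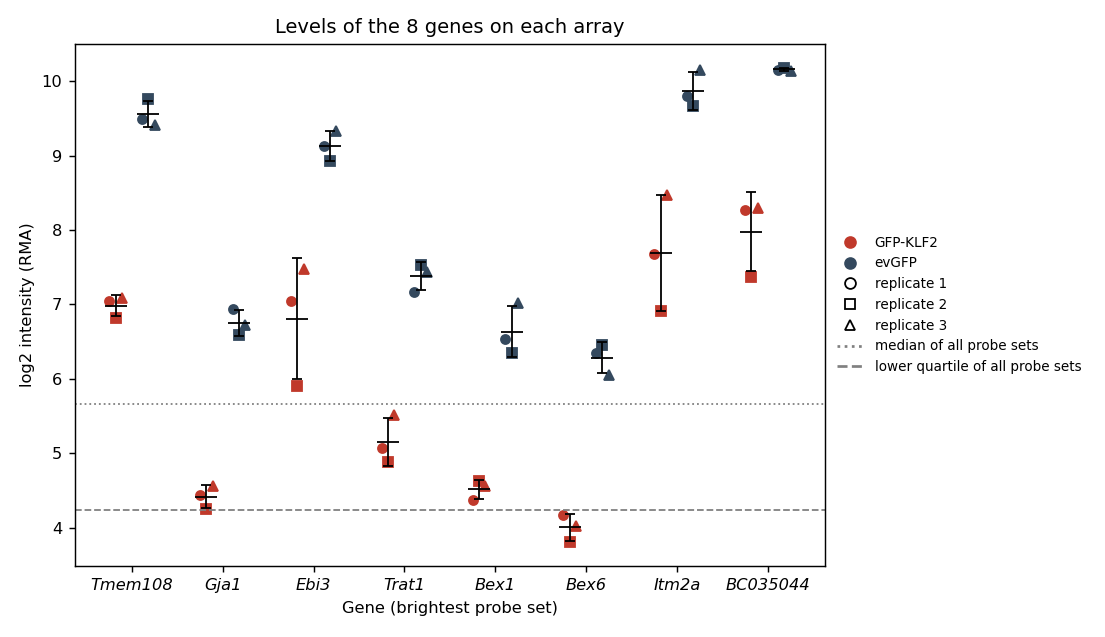
Log2 intensity (vertical axis) of the 8 genes at their brightest probe set, GFP-KLF2 in red and evGFP in dark blue, each marker 1 array, with bars at the mean ± SD (n = 3). No red marker reaches a blue one in any of the 8 genes, and the red markers of *Gja1*, *Trat1*, *Bex1* and *Bex6* lie under the dotted line, the median of all probe sets.

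The adaptor and the proteins known from T cell activation come first. *Trat1* encodes TRIM, a transmembrane adaptor that associates with the zeta chain of the T cell receptor and binds the p85 subunit of PI3-kinase. It measured 5.07, 4.88 and 5.51 in GFP-KLF2 arrays and 7.17, 7.53 and 7.44 in evGFP arrays, so that the highest GFP-KLF2 array stayed 1.66 log2 units under the lowest evGFP array. *Itm2a*, a type II membrane protein with a BRICHOS domain that is induced during thymocyte selection and T cell activation, gave 7.68, 6.91 and 8.48 in GFP-KLF2 arrays and 9.81, 9.66 and 10.16 in evGFP arrays. The GFP-KLF2 arrays of *Itm2a* spread over more than 1 log2 unit, and its gap of 1.19 between the groups was the narrowest of the 8 genes. As means, *Trat1* was 5.15 ± 0.32 in GFP-KLF2 and 7.38 ± 0.19 in evGFP cells and *Itm2a* 7.69 ± 0.78 in GFP-KLF2 and 9.87 ± 0.25 in evGFP cells (SD, n = 3 each), which is 4.68-fold and 4.54-fold lower with KLF2.

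*Ebi3* encodes the subunit that pairs with p28 in IL-27 and with p35 in IL-35. It measured 7.05, 5.90 and 7.48 in GFP-KLF2 arrays and 9.13, 8.93 and 9.33 in evGFP arrays, with means of 6.81 ± 0.81 in GFP-KLF2 and 9.13 ± 0.20 in evGFP cells (SD, n = 3 each) and a log2 fold change of -2.32. In both groups replicate 3 was highest and replicate 2 lowest, with the GFP-KLF2 arrays farther apart. An array reads RNA pooled from many sorted cells, so fewer cells with a transcript and less of it per cell cannot be told apart.

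*Gja1* encodes connexin 43, of which 6 copies form a gap junction hemichannel. The brightest probe set gave 4.44, 4.25 and 4.55 in GFP-KLF2 arrays and 6.94, 6.59 and 6.72 in evGFP arrays, means of 4.42 ± 0.15 in GFP-KLF2 and 6.75 ± 0.18 in evGFP cells (SD, n = 3 each). *Tmem108*, or retrolinkin, is a membrane protein known from axonal and endosomal transport in neurons. It measured 7.04, 6.82 and 7.08 in GFP-KLF2 arrays and 9.50, 9.76 and 9.42 in evGFP arrays, and at 2.33 log2 units had the widest gap between the groups. These 2 genes were 5.04-fold (*Gja1*) and 5.96-fold (*Tmem108*, 6.98 ± 0.14 in GFP-KLF2 and 9.56 ± 0.18 in evGFP cells) lower, with SDs under 0.2 in both groups, above those of 64.5% (*Tmem108*) and 68.9% (*Gja1*) of genes in GFP-KLF2 arrays and 74.9% and 74.6% in evGFP arrays.

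*Bex1* and *Bex6* encode small proteins of the brain-expressed X-linked family, adaptors known mainly from neurons, although mouse *Bex6* lies on chromosome 16. *Bex1* gave 4.37, 4.62 and 4.56 in GFP-KLF2 arrays and 6.53, 6.35 and 7.01 in evGFP arrays (means 4.52 ± 0.13 in GFP-KLF2 and 6.63 ± 0.34 in evGFP, SD, n = 3 each). *Bex6* gave 4.17, 3.80 and 4.03 in GFP-KLF2 arrays and 6.34, 6.46 and 6.05 in evGFP arrays (means 4.00 ± 0.18 in GFP-KLF2 and 6.28 ± 0.21 in evGFP). All GFP-KLF2 arrays of both genes were under 5 and all evGFP arrays above 6, but the GFP-KLF2 mean of *Bex6* lies at the low end of the arrays, where only a bound on its drop can be given. The last gene, *BC035044* (Entrez gene 232406, chromosome 6), measured 8.27, 7.37 and 8.29 in GFP-KLF2 arrays and 10.16, 10.18 and 10.14 in evGFP arrays, 4.54-fold lower. Its SD was 0.53 in GFP-KLF2 arrays and 0.02 in evGFP arrays, where it was smaller than in all but 3.25% of genes.

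Over the 8 genes the log2 fold change as measured was -2.58 to -2.12 with a median of -2.26, or -2.21 with *Bex6* at its bound of -2.04, beside a median of -0.01 over all genes. All 8 had every GFP-KLF2 array under every evGFP array, a separation that 20.6% of all genes showed in this direction, and 0.0605% of all genes were at least 4-fold lower. Among all genes, 8.35% were lower and 6.22% higher at an adjusted p under 0.046, and 0.715% were lower and at least 2-fold so. These shares describe the contrast that chose the genes. The smallest difference among the 8 was that of *Bex1*, the 10th largest drop. Just outside stood *Trgv4*, a gamma chain variable gene of the T cell receptor, at 8.08 in GFP-KLF2 and 10.14 in evGFP cells (-2.07), then *Asb2* (-1.83), *Cd160* (-1.77), *Mccc2* (-1.75) and *Slamf6* (-1.74). *St6gal1* (-2.57), a sialyltransferase, lay among the 8 by size without being one of them.

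The spread within GFP-KLF2 arrays was uneven among the 8 genes. The SD of *Ebi3*, *Itm2a* and *BC035044* there was above that of 99.4%, 99.3% and 98.0% of genes, and that of *Bex1* above 59.7%. The median SD of the 8 genes was 0.254 in GFP-KLF2 arrays and 0.194 in evGFP arrays, and over all genes 0.109 in GFP-KLF2 and 0.113 in evGFP arrays. GFP-KLF2 replicate 2 was the lowest of its group for 7 of the 8 genes, all but *Bex1*, where 34.2% of all genes had it lowest. Among the 130 genes that were lower by at least 2-fold the share was 65.4%.

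Arrays with the same replicate number deviated alike from their group means (correlations across probe sets of 0.33, 0.44 and 0.47), so that the difference can also be read within each pair. Pair 1 gave -2.50 (*Gja1*) to -1.88 (*BC035044*), pair 2 -3.03 (*Ebi3*) to -1.73 (*Bex1*) and pair 3 -2.46 (*Bex1*) to -1.68 (*Itm2a*). The medians over the 8 genes were -2.14, -2.70 and -1.98 in pairs 1, 2 and 3. Pair 2 had the largest drop in 6 of the 8 genes, beside 32.6% of all genes and 52.3% of the 130 genes that were lower by at least 2-fold. For *Bex1* it had the smallest. Without GFP-KLF2 replicate 2 the log2 fold change of *Ebi3*, *Itm2a* and *BC035044* was -1.87, -1.79 and -1.88, under 4-fold, against -2.32, -2.18 and -2.18 with it. Pair 2 is the pair that differs in *Xist* and *Eif2s3y*. What part that plays was not tested.

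**Figure D2:**
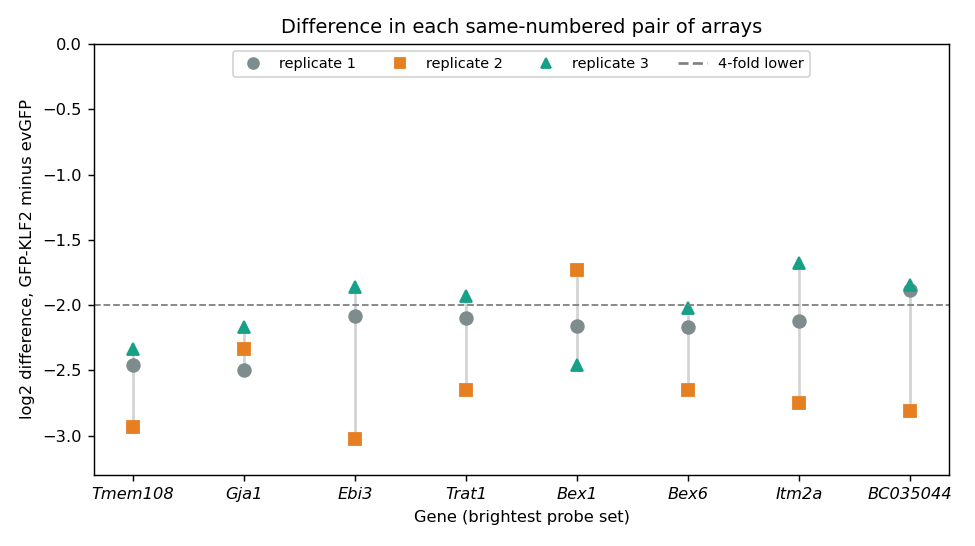
Log2 difference between the GFP-KLF2 and the evGFP array of the same replicate number (vertical axis) for each of the 8 genes, 1 marker per pair, with a dashed line at 4-fold lower. The squares of pair 2 are lowest for 6 genes and highest for *Bex1*, where pair 2 differed by -1.73.

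Likeness of pattern was measured as the root mean square distance, over the 6 arrays, between log2 values set relative to the evGFP mean. *Ebi3* and *Itm2a* were nearest to each other of all genes, at 0.162 log2 units, and *Gja1* and *Bex6* likewise at 0.188. *Tmem108* was nearest to *Bex6* (0.224) and *Gja1* (0.252), *Trat1* to *BC035044* (0.233) and *Bex6* (0.241), and *Bex1* to *Gja1* (0.294) and *Trat1* (0.312). The one gene outside the 8 among these nearest pairs was *Trgv4*, at 0.205 from *Bex6* and 0.217 from *BC035044*. The distance sets a pattern of equal size as like, and the 8 genes were chosen for similar sizes.

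The probe sets of one gene did not all show the drop. Of the 17 probe sets, 14 had every GFP-KLF2 array under every evGFP array and 3 overlapped. Their genes were picked by this same contrast, so the count is a description and not a test. The share over all probe sets is not given here. Among all genes, each at its brightest probe set, 20.6% showed this separation. *Tmem108* was lower at 1 of its 3 probe sets. The other 2 gave 4.93, 5.02 and 4.81 in GFP-KLF2 and 4.85, 4.89 and 4.89 in evGFP arrays (1459210_at), and 3.38, 3.45 and 3.54 in GFP-KLF2 and 3.63, 3.53 and 3.86 in evGFP arrays (1436916_at). Both stayed dim in both groups, so the drop of *Tmem108* rests on the single probe set 1454729_at.

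*Gja1* has 6 probe sets, of which 5 separated the groups, by -2.33 (1437992_x_at) and -1.01 (1438973_x_at) on the log2 scale. The GFP-KLF2 means of the other 3 (1415800_at, 1438945_x_at and 1438650_x_at) were at background, set as the lower quartile of all probe sets, so their drops are given as bounds. The 6th, 1415801_at, gave 4.97, 4.80 and 4.95 in GFP-KLF2 and 5.12, 5.03 and 4.67 in evGFP arrays. The ending _x_at marks probe sets that may also bind unrelated transcripts, which leaves 1415800_at, with the drop, and 1415801_at, without it, as the *Gja1* probe sets that lack this mark. *Trat1* was lower at both its probe sets, by -2.23 (1427532_at) and by -1.02 (1437561_at, 5.17, 5.34 and 5.35 in GFP-KLF2 and 6.37, 6.37 and 6.18 in evGFP arrays). *Itm2a* was lower at both as well, by -2.18 (1423608_at) and -1.49 (1451047_at, 7.67, 7.56 and 8.23 in GFP-KLF2 and 9.20, 9.15 and 9.56 in evGFP arrays). *Ebi3*, *Bex1*, *Bex6* and *BC035044* have 1 probe set each, so nothing within the array checks them.

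**Figure D3:**
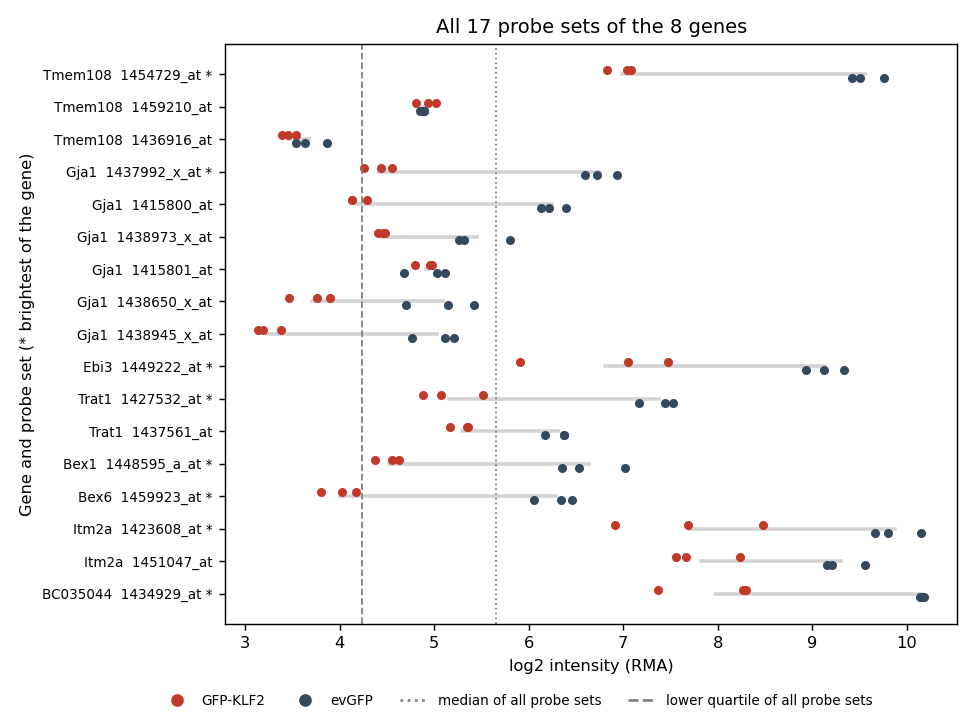
Log2 intensity (horizontal axis) of all 17 probe sets of the 8 genes, each point 1 array, GFP-KLF2 in red and evGFP in dark blue, with a grey line between the group means and vertical lines at the lower quartile (dashed) and the median (dotted) of all probe sets. Points of both groups overlap at 2 probe sets of *Tmem108* and 1 of *Gja1*, and 5 red means lie at or under the dashed line.

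The value table carries no detection call, so the low end was set from the arrays. With the lower quartile of all probe sets as background (4.24 in GFP-KLF2 and 4.22 in evGFP arrays), 5 of the 17 probe sets were at or under it in GFP-KLF2 cells and 1 in evGFP cells. These 5 were 1459923_at of *Bex6*, 1415800_at, 1438650_x_at and 1438945_x_at of *Gja1* and 1436916_at of *Tmem108*, the last being at background in both groups. At their brightest probe sets, 1 of the 8 genes was at or under the lower quartile in GFP-KLF2 and 0 in evGFP cells. Of all genes read likewise, 15.9% in GFP-KLF2 and 16.1% in evGFP cells were. The count out of 17 includes dimmer probe sets, so it cannot be set against these shares. Where a GFP-KLF2 mean was at background and the evGFP mean was not, the difference is a bound, taken with each GFP-KLF2 array at the higher of its own value and its lower quartile. *Bex6* was then at least 4.13-fold lower, and the *Gja1* probe sets 1415800_at, 1438650_x_at and 1438945_x_at at least 3.96-fold, 1.80-fold and 1.73-fold lower. A second limit was the 90th percentile of 80 olfactory and vomeronasal receptor probe sets (5.17 in GFP-KLF2 and 5.13 in evGFP arrays). It put 11 of the 17 at background in GFP-KLF2 cells and 5 in evGFP cells. Read at their brightest probe sets, 4 of the 8 genes were at or under this limit in GFP-KLF2 and 0 in evGFP cells. Of all genes read likewise, 30.5172% in GFP-KLF2 and 30.0005% in evGFP cells were. With this second limit the brightest probe sets of *Trat1*, *Gja1*, *Bex1* and *Bex6* were at least 4.17-fold, 2.99-fold, 2.75-fold and 2.16-fold lower. With the array median as the limit (5.66 in GFP-KLF2 and 5.65 in evGFP arrays), the bounds were 3.29-fold (*Trat1*), 2.12-fold (*Gja1*), 1.96-fold (*Bex1*) and 1.54-fold (*Bex6*). *Tmem108*, *Ebi3*, *Itm2a* and *BC035044* stayed above every limit in both groups, so their folds are measured on both sides.

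The sequences around the start sites are shown for *Itm2a*, *Bex1* and *Gja1*, since KLF factors bind CACCC elements and the 3 genes span many matches, few and none. Windows of 300 bases, 250 before and 50 after each start, come from RefSeq on GRCm38.p6, and capitals mark CACCC or its reverse complement GGGTG. *Itm2a* (chrX:107403311-107403610, minus strand) holds 5 matches, *Bex1* (chrX:136215464-136215763, minus strand) 2 and *Gja1* (chr10:56377050-56377349, plus strand) none.
Itm2a: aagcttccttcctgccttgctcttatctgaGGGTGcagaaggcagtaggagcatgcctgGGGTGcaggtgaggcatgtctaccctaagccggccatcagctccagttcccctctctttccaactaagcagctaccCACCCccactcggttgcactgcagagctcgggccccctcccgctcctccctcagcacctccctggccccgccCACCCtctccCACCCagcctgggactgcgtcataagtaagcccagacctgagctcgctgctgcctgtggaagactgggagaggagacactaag
Bex1: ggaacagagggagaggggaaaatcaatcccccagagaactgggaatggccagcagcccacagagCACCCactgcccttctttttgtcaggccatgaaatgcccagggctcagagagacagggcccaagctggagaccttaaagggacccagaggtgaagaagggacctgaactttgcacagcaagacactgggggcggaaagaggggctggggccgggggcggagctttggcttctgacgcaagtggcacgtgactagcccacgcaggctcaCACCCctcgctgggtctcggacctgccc
Gja1: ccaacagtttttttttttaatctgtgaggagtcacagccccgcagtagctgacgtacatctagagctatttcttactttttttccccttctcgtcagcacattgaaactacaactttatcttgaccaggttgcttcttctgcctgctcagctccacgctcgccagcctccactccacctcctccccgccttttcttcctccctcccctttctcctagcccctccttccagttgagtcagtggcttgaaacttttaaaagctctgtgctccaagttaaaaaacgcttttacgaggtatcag

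The 8 genes have 9 such windows, *Tmem108* having 2. CACCC or GGGTG occurs in 5 of the 9, those of *Itm2a*, *Bex1*, *Ebi3* (1 match) and *Tmem108* (1 and 2 matches), and in 57.5% of the 32851 windows of this length in the table. The windows of *Trat1*, *Bex6* and *BC035044* hold no match. The longer CCACACCC, which contains CACCC, occurs in none of the 9 and in 3.56% of all windows, and the GC box GGGCGG in 3 of the 9 and in 35.7% of all, either strand counted. GC content ran from 35.3% (*Trat1*) through 44.0% (*BC035044*), 45.0% (*Bex6*), 47.7% (*Gja1*), 56.3% (*Ebi3*), 61.3% (*Bex1*) and 62.0% (*Itm2a*), with the windows of *Tmem108* at 70.3% and 52.7%, beside a median of 52.7% over all windows. A match is a run of letters and not a binding site, and binding was not measured in these arrays.

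The relatives and neighbours are genes other than the 8 and are given with limma's test over the whole table, although the 8 were ranked against all genes and the lists were made with earlier results known. Over 7 lists of family members, partners and genomic neighbours, 111 genes other than the 8 were measured, of which 9 were lower and 10 higher at an adjusted p under 0.046, 92 did not pass, and the median log2 fold change was 0.00. As shares, 8.1% were lower and 9.0% higher, beside 8.35% lower and 6.22% higher among all genes, so that the lower share was near that of any gene. The lowest of them, *Gpr174*, was at -0.88.

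**Figure D4:**
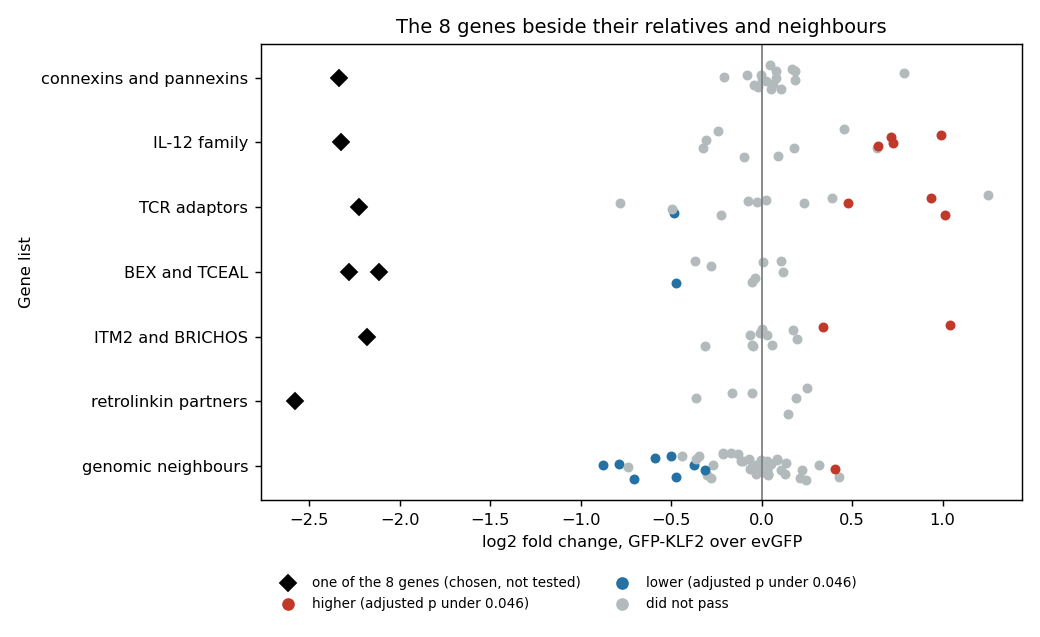
Log2 fold change of GFP-KLF2 over evGFP (horizontal axis) for the 8 genes except *BC035044*, as black diamonds, and for the measured genes of 7 related lists, as circles coloured by limma's adjusted p with a small vertical scatter. *BC035044* is in none of the lists and is not drawn. The diamonds, drawn as measured, lie between -2.58 and -2.12, and no circle is below -0.88.

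Among 17 measured connexins, pannexins and scaffold genes other than *Gja1*, none passed in either direction, with a median of 0.05, and 15 were below the array median in evGFP cells. *Panx1*, which encodes a channel protein related in shape to connexins, was one of those above it, at 9.68 ± 0.15 in GFP-KLF2 and 9.60 ± 0.15 in evGFP cells (adjusted p = 0.742). Of 6 measured partners known for retrolinkin, such as endophilins and a dystonin, none passed (median 0.04), or only *Dst*, lower, with the replicate number as a block.

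Of 12 measured IL-12 family subunits, receptors, kinases and STATs other than *Ebi3*, 4 were higher (33.3%, beside 6.22% of all genes), none was lower and 8 did not pass (median 0.32). The 4 were signalling genes downstream of these receptors. *Jak2* measured 10.05, 10.04 and 9.84 in GFP-KLF2 arrays and 8.83, 8.87 and 9.27 in evGFP arrays (log2 fold change 0.99, adjusted p = 0.00474), and *Stat3* 11.38, 11.42 and 11.33 in GFP-KLF2 and 10.54, 10.69 and 10.76 in evGFP arrays (0.71, 0.00325). Both passed whichever array was left out. With all arrays their dimmer probe sets were higher too, except 1 of *Stat3* (0.03, 0.883). *Jak1* (0.73, 0.0134) did not pass without GFP-KLF2 replicate 1, GFP-KLF2 replicate 2 or evGFP replicate 2 (0.0512, 0.0503 and 0.047), and *Stat4* (0.64, 0.0354) passed in none of the 6 fits that left out 1 array (0.052 to 0.111). The subunits that pair with or resemble *Ebi3* were dim. *Il12a*, the p35 partner, was 4.24 in GFP-KLF2 and 4.57 in evGFP cells (adjusted p = 0.139), and *Il12b* 4.88 in GFP-KLF2 and 4.98 in evGFP cells (0.648). *Il23a* was 4.70 in GFP-KLF2 and 4.24 in evGFP cells (0.0587), and passed with the replicate number as a block (0.0235). *Il27*, the p28 partner, was not measured here.

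Of 13 measured T cell receptor chains, adaptors and kinases other than *Trat1*, 3 were higher (23.1%, beside 6.22% of all genes), 1 was lower (7.7%, near the 8.35% of all genes) and 9 did not pass (median 0.02), and with the replicate block 5 were higher and 2 lower, *Cd247*, *Lat2* and *Sit1* being added. *Pik3r1*, which encodes the PI3-kinase p85 subunit that TRIM binds, gave 10.83, 10.71 and 10.60 in GFP-KLF2 arrays and 9.64, 9.83 and 9.86 in evGFP arrays (0.94, adjusted p = 0.00209). All 4 of its probe sets were higher, by 0.58 to 0.94, and it passed whichever array was left out. The other transmembrane adaptors went both ways. *Lat* was higher (0.48, 0.0148), but not without GFP-KLF2 replicate 1, GFP-KLF2 replicate 2 or evGFP replicate 1 (0.0556, 0.0479 and 0.0494). *Lax1* was higher (1.01, 0.0249), but not without GFP-KLF2 replicate 1 or 2 or evGFP replicate 1 or 2 (0.0638, 0.0805, 0.0851 and 0.0856). *Pag1*, the Csk-binding adaptor, was lower (-0.49, 0.0359), though only the removal of evGFP replicate 1 left it past the threshold (0.0685 to 0.113 without each other array), and 2 of its 3 dimmer probe sets did not pass (0.934 and 0.996). *Sit1* was 8.23 ± 0.39 in GFP-KLF2 and 9.01 ± 0.32 in evGFP cells (-0.78, 0.0646), and passed with the replicate block (0.019).

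Of 8 measured BEX and TCEAL family genes other than *Bex1* and *Bex6*, 1 was lower (12.5%, beside 8.35% of all genes) and 7 did not pass (median -0.05). *Bex3* measured 10.34, 10.29 and 10.48 in GFP-KLF2 arrays and 10.81, 10.78 and 10.93 in evGFP arrays (-0.47, adjusted p = 0.0144). It did not pass without GFP-KLF2 replicate 1, GFP-KLF2 replicate 2 or evGFP replicate 2 (0.0559, 0.0532 and 0.0461). *Bex2* was 4.24 in GFP-KLF2 and 4.60 in evGFP cells (0.0766), and *Bex4* 3.63 in GFP-KLF2 and 3.62 in evGFP cells (0.971), both dim. Genes of this family are similar in sequence, and cross-hybridisation between them was not tested.

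Of 12 measured ITM2 and BRICHOS genes and their proteases other than *Itm2a*, 2 were higher (16.7%, beside 6.22% of all genes), none was lower and 10 did not pass (median 0.02), and with the replicate block *Sppl2b* was lower too. The paralogues *Itm2b* (13.36 in GFP-KLF2 and 13.33 in evGFP cells, adjusted p = 0.877) and *Itm2c* (9.90 in GFP-KLF2 and 9.71 in evGFP cells, 0.303) did not pass. *Furin*, a proprotein convertase, gave 9.53, 10.17 and 10.03 in GFP-KLF2 arrays and 8.57, 9.10 and 8.93 in evGFP arrays (1.04, 0.0155), but did not pass without GFP-KLF2 replicate 2 or evGFP replicate 1 (0.0517 and 0.0494). *Sppl2a*, an intramembrane protease, was higher by 0.34 (0.0339), and passed only without evGFP replicate 3 among the fits that left out 1 array (0.0515 to 0.110 without each other array), and both its dimmer probe sets did not pass (0.0548 and 0.607).

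Neighbours were taken in RefSeq order by start position, up to 3 measured genes on each side. Genes without a probe set were passed over. Of the 48 measured genes that neighbour the 8, 8 were lower, 1 was higher and 39 did not pass (median -0.05). As a share, 16.7% were lower, beside 8.35% of all genes. The next measured genes on both sides of *Gja1* were lower, though far from it, *Hsf2* at 1093 kb and *Msl3l2* at 260 kb. *Hsf2*, a heat shock factor, gave 5.25, 5.13 and 5.31 in GFP-KLF2 and 5.91, 5.85 and 6.30 in evGFP arrays (-0.79, adjusted p = 0.0103), and *Msl3l2* was -0.38 (0.0144). *Hsf2* passed whichever array was left out, but its other probe set did not pass (-0.15, 0.248), and *Msl3l2* did not pass without GFP-KLF2 replicate 1 or 2 or evGFP replicate 1 or 2 (0.0482 to 0.0541). Of the nearest measured genes on either side of the other members, *Nrros*, at 14.2 kb from *Bex6*, was lower (-0.59, 0.0102). The receptor gene *Gpr174*, at 100 kb from *Itm2a*, was lower too (-0.88, 0.0287). *Nrros* passed whichever array was left out, and *Gpr174* passed only without GFP-KLF2 replicate 3 (0.056 to 0.0953 without each other array), and its other probe set did not pass (0.0929). The nearest neighbours of *Tmem108* (*Bfsp2* and *Gm32743*), *Ebi3* (*Zfp119b* and *Yju2*), *Trat1* (*Morc1* and *Retnlb*), *Bex1* (*Tceal8* and *Tceal7*) and *BC035044* (*Klrb1b* and *Clec2i*) did not pass. Farther off in gene order, *Bex3*, at 54.7 kb from *Bex1* and given above with its family, was lower (-0.47, 0.0144) and counts in both lists. *Dzip3* at 114 kb from *Trat1* (-0.71, 0.00198) and *Cdv3* at 117 kb from *Tmem108* (-0.50, 0.00806) were lower, whichever array was left out. Of their dimmer probe sets, 3 of 5 did not pass for *Dzip3* (0.126 to 0.964) and 3 of 3 for *Cdv3* (0.0532 to 0.718). *Tbc1d32*, at 148 kb from *Gja1* and so closer to it than *Msl3l2*, was lower (-0.31, 0.0431). It passed in none of the fits that left out 1 array (0.0601 to 0.133). *Serinc1*, at 1125 kb from *Gja1*, was higher (0.40, 0.0176), though not without GFP-KLF2 replicate 2, evGFP replicate 1 or evGFP replicate 2 (0.0613, 0.0631 and 0.061). Of its 3 dimmer probe sets, 2 did not pass (0.0533 and 0.671).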

How the data were processed

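RNA of sorted GFP-KLF2 and evGFP CTL was hybridised to 6 Affymetrix 3' expression arrays. The authors normalised them by RMA and deposited linear intensity values, which reach from 5.74 to 33637.8. The tool versions and the genome build of the annotation are not given in the sources used here. Here log2 was taken, 64 of 45101 probe sets were removed as controls, and limma 3.58.1 (R 4.3.3, data.table in version 1.17.8) fitted 1 constant per group to 45037 probe sets, with Benjamini-Hochberg adjustment over all of them. The methods print the adjusted p threshold as 0.046%, which is 0.00046 as a fraction. Here 0.046 was used, a looser limit than the printed one, and 0.00046 was an alternative. A gene was read at its probe set with the highest mean among 34945 probe sets annotated to 1 gene (932 had several and 9160 none). Of the 34945, 34741 matched a gene of RefSeq on GRCm38.p6, which gave gene order and promoters. Python 3.11.15, pandas 2.3.3, numpy 2.4.6 and matplotlib 3.10.9 did the rest. All columns were mapped to samples.

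The 8 genes, the related lists and the marker lists were chosen with earlier results of these data known. Named were the 8 genes, up to 6 genes per related list past the threshold and close paralogues. So were the next measured genes on each side, the genes nearest in pattern and those next to the 8 in size of change. *Cd8b1*, *Zbtb7b*, *Klf2*, *Xist*, *Eif2s3y*, *Panx1*, *Dst*, *Cd247*, *Lat2* and *Sppl2b* were named after their values were seen. Marker lists of NK, gamma-delta T and erythroid cells had 1, 1 and 2 measured genes, and 4 sex-linked genes were measured, with none past the threshold. A few genes are not reported here.

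Replicate numbers come from the labels. Same-numbered arrays deviated together with correlations of 0.33, 0.44 and 0.47 (others -0.38 to 0.06), so a fit with the number as a block was an alternative. The others were thresholds, filters, scalings, probe set rules, array weights and leaving out each array. With 3 arrays per group, their number limits the precision. The p-values set the group difference against the spread between these arrays, which limma moderates over all probe sets.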

Additional observations from a re-analysis of the deposited data

How the results depend on the processing

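No result past the threshold changed direction under any alternative. The 8 genes kept log2 fold changes of -1.79 or below when each array was left out (*Tmem108* -2.65 to -2.48, *Gja1* -2.41 to -2.24, *Ebi3* -2.66 to -1.87, *Trat1* -2.41 to -2.09, *Bex1* -2.26 to -1.92, *Bex6* -2.40 to -2.18, *Itm2a* -2.58 to -1.79, *BC035044* -2.34 to -1.88). Averaging all probe sets of a gene gave *Tmem108* -0.92, *Gja1* -1.44, *Trat1* -1.62 and *Itm2a* -1.83, by including the probe sets without the full drop, and moved *Tmem108* to the 141st largest drop. Leaving out cross-hybridising probe sets gave *Gja1* -2.06. Adding 16 before log2, which shrinks dim differences, gave *Gja1* -1.73, *Trat1* -1.82, *Bex1* -1.57 and *Bex6* -1.55. With the array median as background, 12 of the 17 probe sets were at it in GFP-KLF2 and 6 in evGFP cells, and with the receptor percentile 11 and 5. Read at their brightest probe sets, 4 of the 8 genes in GFP-KLF2 and 0 in evGFP cells were at or under either limit. Of all genes read likewise, 37.7% in GFP-KLF2 and 38.0% in evGFP cells were at or under the array median. For the receptor percentile these shares were 30.5172% in GFP-KLF2 and 30.0005% in evGFP cells.

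With the replicate number as a block, 2203 genes were lower and 1561 higher, against 1519 and 1131 without it, and 13 relatives were lower and 13 higher, against 9 and 10. Beside *Il23a*, *Sit1*, *Dst*, *Cd247*, *Lat2* and *Sppl2b*, which it added, the block changed the call of no gene named. An adjusted p under 0.00046 left 3 genes lower and 31 higher, all at least 2-fold, and no relative in either direction (0 lower and 0 higher). Cyclic loess left 961 lower and moved *Pag1* and *Tbc1d32* over the threshold, and the mean of all probe sets left 81 lower by 2-fold or more, against 130. Array weights called 14 relatives lower. Leaving out 1 array gave 591 to 1132 genes lower (90 to 160 by 2-fold or more), 556 to 1041 higher (285 to 431 by 2-fold or more, against 405), and 4 to 7 relatives lower and 3 to 11 higher. Over the relatives past the threshold and the close paralogues, 74 combinations of a gene and an alternative lost the call and 5 gained one. *Dst*, *Cd247*, *Lat2* and *Sppl2b* are not in this count. The cause of these shifts was not tested. The fits that left out 1 array also had fewer arrays. No scaling moved the median of all genes by more than 0.1.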
